A study of Rattus norvegicus with 12 samples.

Results

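Cell cycle and mitosis genes of the rat prostate are described here in 4 groups of 3 microarrays. The set holds 40 genes, of which 10 act in DNA synthesis (S phase), 7 in the control of G1 and 23 in G2 and mitosis. A member was measured by every probe that the array files name for it, with the name Cdc2 or Cdc2a standing for Cdk1, and was represented by its brightest probe. By this rule 39 of the 40 genes were matched, by 60 of the 41012 probes, and 37 were tested. Aurka was matched only through its accession, since the files call it Stk6. Cenpe was well above background on 0 of the 12 arrays and Nusap1 on 2, so neither was tested.

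The animals were male rats of 10 weeks, in groups of 5 or 6. The sham/vehicle group had a sham operation and then vehicle (0.1% Tween 80) for 5 days, with dosing that began 5 days after surgery. The sham/Eviprostat group had the same operation and schedule with Eviprostat, a plant-based preparation given to men with an enlarged prostate, in doses of 18 mg/kg that added up to 36 mg/kg daily. The obstruction/vehicle and obstruction/Eviprostat groups had a ring tied around the urethra near the bladder and got the same agents for 5 days from the day after surgery. Prostates were removed 2 h after the last dose. Operation and time since surgery were therefore not separated. The labelling protocol describes prostate tissue pooled within a group, while the sample labels call the 3 arrays biological replicates. The p-values below thus speak of variation among arrays, which may be technical, not of variation among animals.

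In dividing cells, cyclins and cyclin-dependent kinases drive the steps from G1 to mitosis. E2F factors switch on the genes of DNA synthesis at the G1/S boundary, while many mitotic genes are repressed outside G2 through a promoter element called CHR and activated through CCAAT boxes. The adult prostate epithelium divides slowly, and transcripts of these genes are used as a measure of how many cells of a tissue are cycling. In bulk tissue, fewer cycling cells and less RNA per cell cannot be told apart.

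Each array carried its own group's RNA in Cy5 and sham/vehicle RNA in Cy3, with no dye swap, so the 3 sham/vehicle arrays held sham/vehicle RNA in both dyes. The measure is the log2 ratio of Cy5 to Cy3, and groups were compared with the sham/vehicle arrays or with each other, never with a ratio of 0. The labelling reactions took 1500 ng of sham/vehicle RNA but 300 ng from the other groups. In comparisons that use sham/vehicle, an effect of this amount cannot be told apart from that of group. Replicate numbers follow the 3 slides, and slide 1 was scanned on another day and was dimmer, with a median Cy5 intensity of 401 to 416 against 576 to 677 on the other slides. In Cy5, the spots well above background made up 70.9% to 88.4% per array. They were fewest in obstruction/Eviprostat on slide 1 (70.9%, against 75.6% to 78.4%) and slide 2 (78.7%, against 85.6% to 87.2%). On slide 3 obstruction/Eviprostat had 84.4% and sham/vehicle 83.6%. Of 20 tested G2 and mitosis members, 13 to 19 were well above background on obstruction/Eviprostat arrays and 16 to 20 on the others. The part of this weaker detection in the results was not tested. Within a slide each group always took the same position, so that an effect of position cannot be told apart from that of group. The 11 prostate luminal markers matched, such as the secretory gene Pbsn, had 10 or 11 genes well above background on every array.

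Across the 4 groups, the obstruction/Eviprostat arrays had the lowest mean ratio for 30 of the 37 tested members. The highest mean was in obstruction/vehicle for 21 members and in sham/Eviprostat for 12. Such counts are not given over all kept probes, so this order of groups cannot be called particular to the members. Averaged over the 10 S phase members, the log2 ratio was -0.022, -0.030 and -0.016 on the sham/vehicle arrays (replicates 1 to 3 in this and the following lists), 0.25, 0.23 and 0.24 on sham/Eviprostat, 0.33, 0.14 and 0.36 on obstruction/vehicle and -0.16, -0.15 and -0.17 on obstruction/Eviprostat. The S phase mean was thus above every sham/vehicle array on all sham/Eviprostat and obstruction/vehicle arrays and below them on all obstruction/Eviprostat arrays. Over the 20 tested G2 and mitosis members it was -0.032, -0.0031 and -0.018 on sham/vehicle, -0.039, 0.15 and 0.15 on sham/Eviprostat, 0.075, 0.075 and 0.27 on obstruction/vehicle and -0.11, -0.26 and -0.29 on obstruction/Eviprostat. The obstruction/Eviprostat arrays were again lowest, but sham/Eviprostat replicate 1 was below all sham/vehicle arrays. The 7 G1 members averaged 0.0063 ± 0.088 (SD, n = 3) in sham/vehicle, 0.028 ± 0.15 in sham/Eviprostat, 0.13 ± 0.12 in obstruction/vehicle and -0.12 ± 0.038 in obstruction/Eviprostat. Their sham and obstruction/vehicle arrays overlapped. The obstruction/Eviprostat arrays, at -0.155, -0.081 and -0.131, overlapped both sham groups too. There replicate 1 was at -0.095 in sham/vehicle and -0.143 in sham/Eviprostat.

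**Figure D1:**
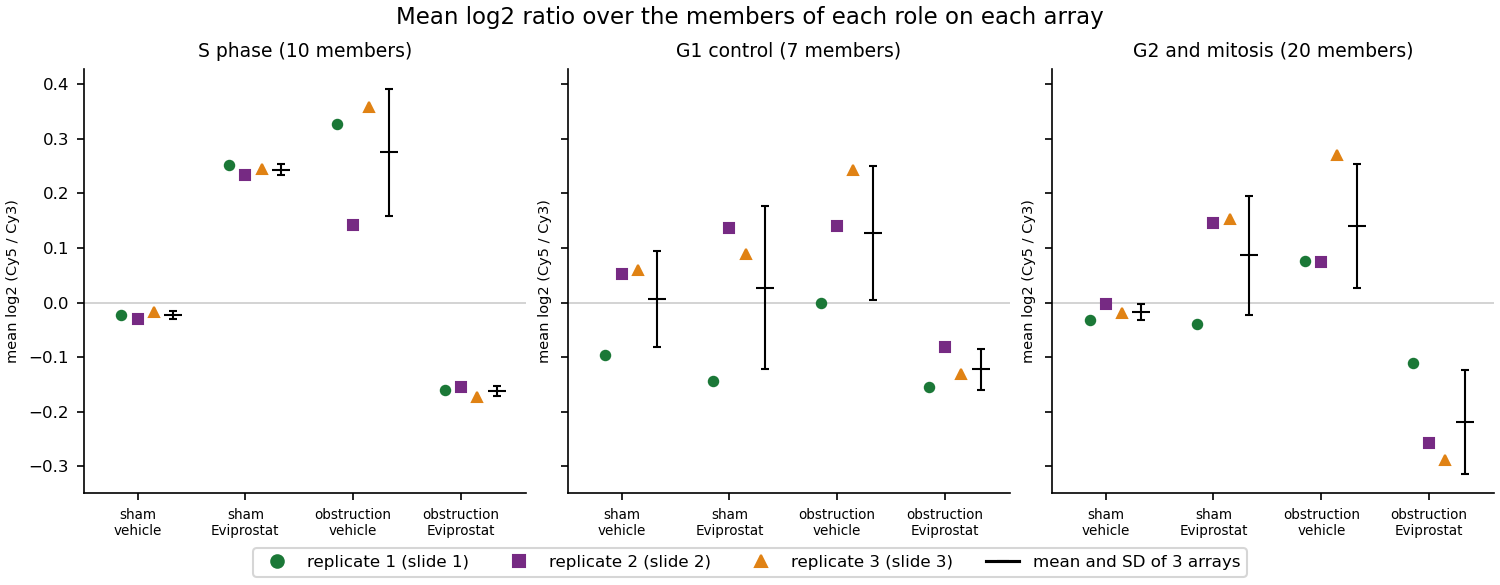
Mean log2 ratio of Cy5 to Cy3 over the S phase, G1 control and G2 and mitosis members on each of the 12 arrays, by group; symbols mark the replicate, which is also the slide, and bars give the mean and SD of 3 arrays. The 3 obstruction/Eviprostat arrays sit lowest in the S phase and the G2 and mitosis panels, and the S phase panel has sham/Eviprostat and obstruction/vehicle above sham/vehicle.

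Markers of other cell types also differed between these arrays, and their part in the results on the members was not tested. Of 13 macrophage markers 12 were higher in obstruction/vehicle than in sham/vehicle and 11 lower in obstruction/Eviprostat than in obstruction/vehicle. Their mean log2 ratio was 1.30 to 1.97 on obstruction/vehicle arrays and -0.088 to 0.24 on all others. In the same 2 comparisons 8 of 10 fibroblast markers were higher and 7 lower, 6 of 7 smooth muscle markers higher and 5 lower, and 4 of 8 neutrophil markers higher and 4 lower. Of 9 endothelial markers 3 were higher and 1 lower and then 3 lower, of 10 T and B cell markers 1 was higher and then 1 lower, of 5 basal epithelial markers 3 and then 2, and of 4 urothelial markers 2 and then 2. Of all named genes, limma called 9.88% higher and 5.15% lower with obstruction. With Eviprostat in obstructed rats it called 4.35% higher and 8.07% lower, and in sham rats 1.2% higher. The T and B cell counts are near these shares. Of 11 prostate luminal markers 5 were lower and then 6 higher, with mean ratios of -0.68 to -0.52 on obstruction/vehicle arrays. The 6 seminal vesicle markers, of a gland next to the prostate, were all higher in obstruction/vehicle (mean ratio 5.47 to 6.13) and in sham/Eviprostat (4.97 to 5.03) than in sham/vehicle (0.036 to 0.11), and were at 0.58 to 1.00 in obstruction/Eviprostat. The 2 groups with the higher S phase means are also those with high seminal vesicle markers. Of 9 skeletal muscle markers 7 were lower in obstruction/vehicle and 7 higher in sham/Eviprostat, with mean ratios of -1.46 to -1.33 and 1.22 to 1.53. On every array at least 12 macrophage, 10 fibroblast, 7 smooth muscle, 4 neutrophil, 5 seminal vesicle and 8 skeletal muscle markers were well above background.

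The promoters of some called members are given as the 250 bases before the gene start in RefSeq's annotation of GRCr8, 5′ to 3′ on the gene's strand. Capitals mark the CHR letters TTTGAA, the CCAAT box CCAAT and the E2F letters TTTCCCGC, TTTCGCGC, TTTGGCGC and TTTGCCGC, each searched on both strands. Cdk1, Top2a and Cdc20 stand for mitosis, and Mcm6 and Mcm3 for S phase, and all were called in at least 3 of the 6 comparisons.
Cdk1 (chr20:19265043-19265292, plus strand): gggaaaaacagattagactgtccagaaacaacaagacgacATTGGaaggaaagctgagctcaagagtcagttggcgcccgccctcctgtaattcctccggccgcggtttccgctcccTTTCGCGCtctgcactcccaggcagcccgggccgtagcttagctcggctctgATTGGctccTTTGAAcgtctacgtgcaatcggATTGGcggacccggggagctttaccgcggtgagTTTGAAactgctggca
Top2a (chr10:84473094-84473343, minus strand): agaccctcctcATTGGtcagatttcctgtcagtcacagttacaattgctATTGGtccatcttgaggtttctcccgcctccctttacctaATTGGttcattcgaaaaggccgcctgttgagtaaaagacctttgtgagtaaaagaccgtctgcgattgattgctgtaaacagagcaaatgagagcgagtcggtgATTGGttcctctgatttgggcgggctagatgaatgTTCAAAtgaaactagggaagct
Cdc20 (chr5:137255800-137256049, minus strand): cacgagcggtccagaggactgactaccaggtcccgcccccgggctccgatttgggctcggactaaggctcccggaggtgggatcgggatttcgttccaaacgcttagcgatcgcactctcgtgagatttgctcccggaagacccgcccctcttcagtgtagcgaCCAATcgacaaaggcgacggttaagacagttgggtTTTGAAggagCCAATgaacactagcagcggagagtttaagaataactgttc
Mcm6 (chr13:42404353-42404602, minus strand): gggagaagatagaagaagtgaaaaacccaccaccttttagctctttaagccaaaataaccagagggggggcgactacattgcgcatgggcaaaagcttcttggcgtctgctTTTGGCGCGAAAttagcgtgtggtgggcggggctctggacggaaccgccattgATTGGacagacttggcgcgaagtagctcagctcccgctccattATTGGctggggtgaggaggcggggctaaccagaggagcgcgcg
Mcm3 (chr9:30733747-30733996, minus strand): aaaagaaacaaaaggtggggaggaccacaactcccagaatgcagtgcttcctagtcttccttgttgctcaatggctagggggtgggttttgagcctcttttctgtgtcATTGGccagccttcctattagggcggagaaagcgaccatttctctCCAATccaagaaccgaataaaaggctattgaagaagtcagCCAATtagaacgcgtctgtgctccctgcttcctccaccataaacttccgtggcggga
The Cdk1 window held 2 CHR, 3 CCAAT and 1 E2F match. Top2a had 1 CHR and 4 CCAAT matches, and Cdc20 1 CHR and 2 CCAAT. Mcm6 had 2 CCAAT matches and 2 E2F matches that overlap on opposite strands, and Mcm3 had 3 CCAAT matches. Windows were chosen for the members of each role called in the most comparisons, with ties by size of difference. This rule also chose Bub1 and Pcna, whose windows held the fewest matches and are not printed here. Bub1, also called in 3 comparisons, held 0 matches of the 3 kinds in its window, and Pcna, called in 1, held 1 CCAAT match. Promoter entries were found for 32 of the 40 members. The CHR letters were present in 7 of 20 G2 and mitosis promoters (35%) and 1 of 8 S phase promoters (12.5%), against 16.0% of all 27457 promoters. The E2F letters were present in 5 of 8 S phase promoters (62.5%) and 1 of 20 G2 and mitosis promoters (5%), against 1.81% of all. The CCAAT box was in 15 of 20 (75%) and 6 of 8 (75%), against 34.3%. It was in 10 of 15 members called in at least 1 comparison (66.7%) and 12 of 17 not called (70.6%). The E2F letters were in 3 of 15 (20%) and 3 of 17 (17.6%), and the CHR letters in 6 of 15 (40%) and 2 of 17 (11.8%). The members not called include those that were not tested. A match describes the letters in a window and is not a measured binding site.

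Obstruction was first compared under vehicle (obstruction/vehicle against sham/vehicle), which addresses what the partial obstruction changes in the prostate. In the obstructed rats 6 of 37 members were higher and 1 was lower by limma (adjusted p below 0.05), the higher ones by 1.26-fold to 1.71-fold. In this comparison limma called 11.6% of all 36102 kept probes, 7.15% higher and 4.45% lower. Of the brightest probes of 14650 named genes it called 15%, with 9.88% higher and 5.15% lower, and the members' share, 18.9%, is near that background. By role, 2 of 10 S phase, 1 of 7 G1 and 3 of 20 G2 and mitosis members were higher, and 1 mitotic member was lower. The median difference was 0.31 over the S phase members and 0.13 over the G2 and mitosis members, against -0.012 over all kept probes.

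Mcm3 and Mcm6 encode subunits of the helicase that unwinds DNA at replication forks. The log2 ratio of Mcm3 (probe at chromosome 9, 19535990 to 19536049 on rn3) was -0.12, 0.0049 and -0.12 in sham/vehicle and 0.59, 0.35 and 1.17 in obstruction/vehicle. Mcm3 rose by 0.78 ± 0.18 (SE), or 1.71-fold, with adjusted p = 0.0138 by limma. The groups did not overlap, and obstruction/vehicle replicate 3 was the highest array. Its second probe also rose, by 0.57 (adjusted p = 0.0309). Mcm6 (chromosome 13, 41066191 to 41066250) was at -0.25, -0.16 and -0.20 in sham/vehicle and 0.34, 0.18 and 0.63 in obstruction/vehicle, again without overlap. Mcm6 rose by 0.58 ± 0.14 (adjusted p = 0.016 by limma). The Mcm3 call was lost without sham/vehicle replicate 3 (0.76), and the Mcm6 call without sham/vehicle replicate 3 (0.58) or obstruction/vehicle replicate 3 (0.46). With median centring of each array in place of loess only Bub1 was called, and Mcm3 and Mcm6 were at 0.87 and 0.64. The other 4 Mcm members, Mcm2, Mcm4, Mcm5 and Mcm7, were not called, with differences of 0.30, -0.097, 0.12 and 0.32. Pcna, the sliding clamp of the replicative polymerases, was at -0.51, 0.14 and 0.17 in sham/vehicle and 0.078, 0.57 and 0.87 in obstruction/vehicle. The arrays of slide 1 were lowest in both groups, the groups overlapped, and the difference of 0.57 ± 0.22 did not pass (adjusted p = 0.127). With the replicate number as a block, Pcna was called (adjusted p = 0.0012 by limma), and so were Mcm7 (0.0468) and Rrm1 (0.0456), the large subunit of ribonucleotide reductase. In that blocked fit 12 members were called, 11 higher and 1 lower. Shares of all kept probes called in the blocked fits and other alternative runs are not given here. Their counts of members therefore cannot be set against a background.

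Cdkn1a encodes p21, an inhibitor of cyclin-dependent kinases and a known target of p53. Its ratio (probe at chromosome 20, 7386823 to 7386882) was -0.066, -0.044 and -0.052 in sham/vehicle and 0.59, 0.61 and 0.74 in obstruction/vehicle. All obstruction/vehicle arrays were above all others of the series, and their spread was small. Cdkn1a rose by 0.70 ± 0.075, or 1.63-fold (adjusted p = 7.23e-05 by limma), a call kept in each of the 12 fits that left out 1 array and lost with median centring (0.78, adjusted p = 0.357). Its second, dimmer probe gave 0.42 and did not pass (adjusted p = 0.14). The other G1 members, which include the cyclins Ccnd1, Ccnd2 and Ccne1, the kinases Cdk2 and Cdk4 and the transcription factor E2f1, were not called and lay between -0.15 for Cdk2 and 0.18 for E2f1.

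Among the mitotic members, Cdk1, the kinase that starts mitosis, was at -0.0043, 0.044 and -0.049 in sham/vehicle and 0.46, 0.48 and 0.69 in obstruction/vehicle (probe at chromosome 20, 20057555 to 20057614). The groups did not overlap. Cdk1 rose by 0.55 ± 0.089, or 1.46-fold (adjusted p = 0.00171 by limma), also in each fit that left out 1 array, though not with median centring (0.62, adjusted p = 0.429). Bub1, a kinase of the spindle checkpoint, was at -0.096, -0.35 and -0.21 and 0.74, 0.11 and 0.56 (chromosome 3, 115230208 to 115230267) and rose by 0.69 ± 0.16 (adjusted p = 0.0146). Cdc20, which activates the anaphase-promoting complex, was at 0.29, 0.078 and 0.16 and 0.62, 0.42 and 0.49 (chromosome 5, 138918493 to 138919463) and rose by 0.33 ± 0.092 (adjusted p = 0.0345). Neither gene's groups overlapped, but obstruction/vehicle replicate 2 of Bub1 was far below its 2 partners. Kif2c, a kinesin that takes microtubule ends apart at centromeres, moved the other way, from -0.41, -0.19 and -0.24 to -1.35, -0.50 and -1.11 (chromosome 5, 137483341 to 137486193). Kif2c fell by 0.71 ± 0.19 on the log2 scale (adjusted p = 0.0352 by limma). Leaving out sham/vehicle replicate 2 (0.63) or 3 (0.70), or obstruction/vehicle replicate 1 (0.56) or 3 (0.65), ended the Bub1 call. The Cdc20 call was lost in 6 and the Kif2c call in 7 of the 12 fits without 1 array, with values from 0.28 to 0.39 and from -0.95 to -0.53. In both, sham/vehicle replicates 2 and 3, obstruction/vehicle replicates 1 and 3 and obstruction/Eviprostat replicate 3 ended the call. For Cdc20 sham/Eviprostat replicate 3 did so too, and for Kif2c sham/vehicle replicate 1 and obstruction/Eviprostat replicate 2. Fewer members were called without sham/vehicle replicate 2 (4), sham/vehicle replicate 3 (2) or obstruction/vehicle replicate 3 (3).

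Mki67, whose protein Ki-67 marks cycling cells, was at -0.028, -0.17 and 0.0093 in sham/vehicle and -0.014, -0.0099 and 0.21 in obstruction/vehicle (probe at chromosome 1, 195464455 to 195464514). The groups overlapped, and the difference of 0.12 ± 0.13 did not pass (adjusted p = 0.625 by limma). Mki67 was dim, and 11 of the 12 arrays were well above background. Top2a, the topoisomerase that untangles chromosomes before they part, was at -0.14, -0.15 and -0.15 and -0.14, 0.095 and 0.38 (chromosome 10, 87785829 to 87785888). It gave 0.26 ± 0.15 (adjusted p = 0.342), with overlap on slide 1. The mitotic cyclin gene Ccnb1 gave 0.40 ± 0.15 (adjusted p = 0.115) and the polo kinase gene Plk1 0.47 ± 0.24 (adjusted p = 0.255). With the replicate block both were called (adjusted p = 0.0412 and 0.00451).

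**Figure D2:**
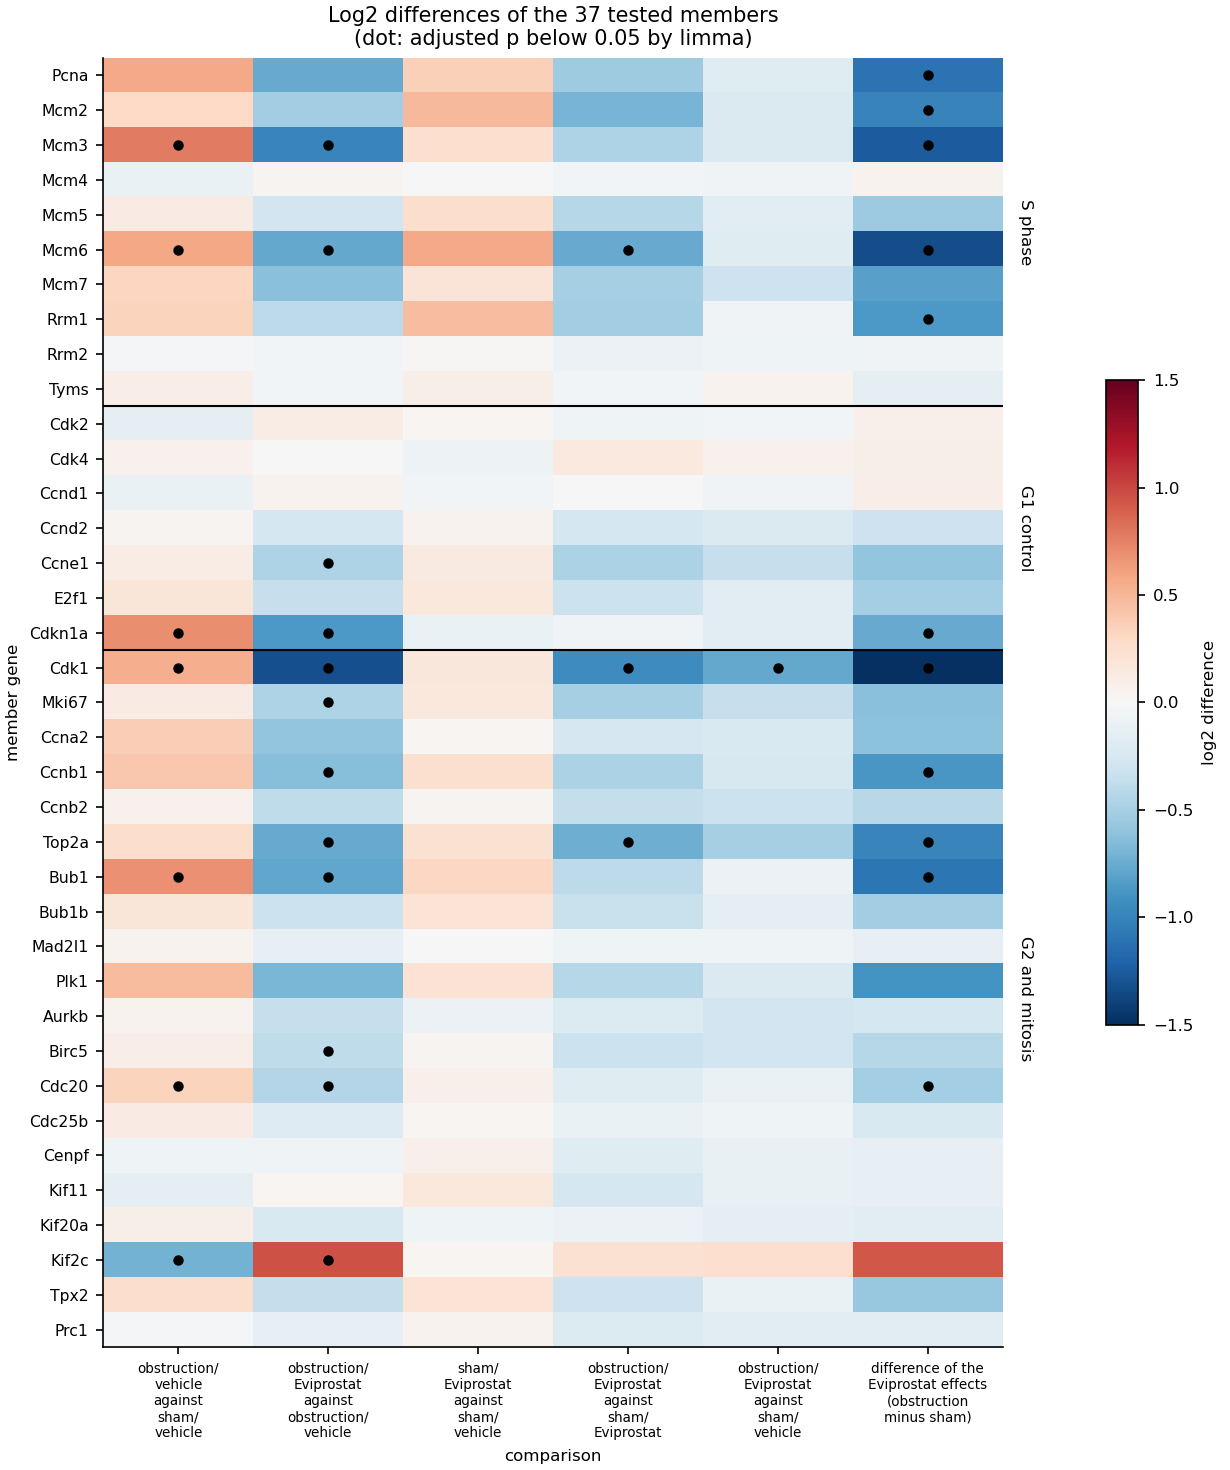
Log2 differences (colour) of the 37 tested members in the 6 comparisons, with members grouped by role; a dot marks an adjusted p below 0.05 by limma over all 36102 kept probes. The column of Eviprostat in obstructed rats has 12 dots, 11 of them lower, and the column of Eviprostat in sham rats has 0.

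The effect of Eviprostat after obstruction was examined next (obstruction/Eviprostat against obstruction/vehicle), which addresses whether the preparation alters what obstruction changed. With Eviprostat, 11 of 37 members were lower, led by Cdk1 at 2.49-fold, and 1, Kif2c, was higher. Of these, 2 of 10 were S phase, 2 of 7 G1 and 7 of 20 G2 and mitosis members, with Kif2c as the mitotic exception. In this comparison limma called 9.79% of all kept probes, 3.9% higher and 5.89% lower, and 12.4% of the brightest probes of named genes, 4.35% higher and 8.07% lower. The members' share was 32.4%. The median difference was -0.46 over the S phase, -0.26 over the G1 and -0.37 over the G2 and mitosis members, against 0.010 over all kept probes. Below 0 were 9 of 10 S phase and 18 of 20 G2 and mitosis members. Both this comparison and the previous one use the obstruction/vehicle arrays, so opposite signs in them are not independent.

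Cdk1 was at 0.46, 0.48 and 0.69 on the obstruction/vehicle and -0.66, -0.87 and -0.79 on the obstruction/Eviprostat arrays. The gap between the groups was many times the spread within them, and the treated arrays were below every other array of the series. Cdk1 fell by 1.32 ± 0.089 on the log2 scale (adjusted p = 2.16e-06 by limma) and kept the call in all fits that left out 1 array. Ccnb1, the cyclin partner of Cdk1, went from 0.17, 0.15 and 0.67 to -0.14, -0.41 and -0.37 (chromosome 2, 31495178 to 31495417) and fell by 0.64 ± 0.15 (adjusted p = 0.0188). That call was lost without obstruction/vehicle replicate 3 (-0.47), obstruction/Eviprostat replicate 2 (-0.58) or replicate 3 (-0.60), and with the mean of both probes (-0.40), the second probe being at -0.17 (adjusted p = 0.518). Ccna2 and Ccnb2, the other mitotic cyclins, gave -0.59 ± 0.20 and -0.38 ± 0.12 and did not pass (adjusted p = 0.0847 and 0.0749). With the replicate block both were called (adjusted p = 0.0194 and 0.0227 by limma).

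Top2a was at -0.53, -0.72 and -0.69 in obstruction/Eviprostat, below each of the other 9 arrays, and fell by 0.76 ± 0.15 (adjusted p = 0.00762 by limma). Its second probe gave -0.016 (adjusted p = 0.961), and the mean of both probes lost the call (-0.39). Mki67 was at -0.083, -0.52 and -0.61, where replicate 1, on the dimmer slide, was close to the obstruction/vehicle arrays and the other 2 were well below them. Mki67 fell by 0.47 ± 0.13 (adjusted p = 0.0407), but kept the call only without sham/Eviprostat replicate 1, obstruction/vehicle replicate 2 or obstruction/Eviprostat replicate 1, out of 12 arrays left out in turn, with values from -0.63 to -0.36. Bub1 was at -0.054, -0.42 and -0.43 and fell by 0.77 ± 0.16 (adjusted p = 0.00898), without overlap. Cdc20 was at 0.14, -0.031 and 0.11 and fell by 0.44 ± 0.092 (adjusted p = 0.00987), a call lost without obstruction/Eviprostat replicate 2 (-0.39). Birc5, which encodes survivin of the chromosomal passenger complex, went from 0.25, 0.13 and 0.39 to -0.050, -0.24 and -0.078 and fell by 0.38 ± 0.096 (adjusted p = 0.0262). Leaving out obstruction/vehicle replicate 1 (-0.38) or 3 (-0.31), or obstruction/Eviprostat replicate 2 (-0.32) or 3 (-0.40), ended the Birc5 call. Kif2c was at -0.18, 0.067 and 0.022, with all 3 arrays above the obstruction/vehicle arrays, and rose by 0.96 ± 0.19 (adjusted p = 0.00835), also in each fit without 1 array.

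In S phase, Mcm3 was at -0.32, -0.26 and -0.30 in obstruction/Eviprostat, in a narrow band below all obstruction/vehicle arrays. Mcm3 fell by 0.99 ± 0.18 (adjusted p = 0.00375 by limma), and its second probe fell by 0.57 (adjusted p = 0.0354). Mcm6 was at -0.30, -0.40 and -0.46 and fell by 0.77 ± 0.14 (adjusted p = 0.00366). Both calls were kept in all 12 fits without 1 array. With median centring in place of loess 4 members were called, all lower, among them Cdk1 and Bub1, while Mcm3 and Mcm6 were at -1.09 and -0.88 (adjusted p = 0.0518 and 0.0688). Pcna was at -0.49, -0.14 and -0.12, without overlap, and at -0.75 ± 0.22 just missed the threshold (adjusted p = 0.0515). The dimmer Pcna probe was called, at -0.51 (adjusted p = 0.0397). With the replicate block Pcna, Mcm2, Mcm7 and Rrm1 were called as well (adjusted p = 0.000187, 0.0145, 0.00132 and 0.0256). The blocked fit called 22 members, 1 higher and 21 lower, again without a share over all kept probes beside it.

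Of the G1 members, Cdkn1a was at -0.22, -0.20 and -0.21 in obstruction/Eviprostat and fell by 0.86 ± 0.075, or 1.81-fold (adjusted p = 1.75e-05 by limma). Its second probe gave -0.43 and was not called (adjusted p = 0.144), and median centring ended the call (-0.95, adjusted p = 0.254). The transcript of the inhibitor p21 and that of the cycle-driving kinase Cdk1 were thus both lower on the same arrays. Ccne1, whose cyclin E1 drives entry into S phase with Cdk2, was at 0.35, 0.056 and 0.14 in obstruction/vehicle and -0.44, -0.13 and -0.27 in obstruction/Eviprostat (chromosome 1, 90646308 to 90646367). Ccne1 fell by 0.46 ± 0.13 (adjusted p = 0.0489), a call kept only without sham/Eviprostat replicate 1 or obstruction/vehicle replicate 2 among the 12 fits without 1 array, with values from -0.54 to -0.38. Its second probe gave -0.21 and was not called (adjusted p = 0.357). E2f1 gave -0.34 ± 0.12 and passed only with the replicate block (adjusted p = 0.0988 and 0.0203). Without obstruction/Eviprostat replicate 2 the members called numbered 7.

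**Figure D3:**
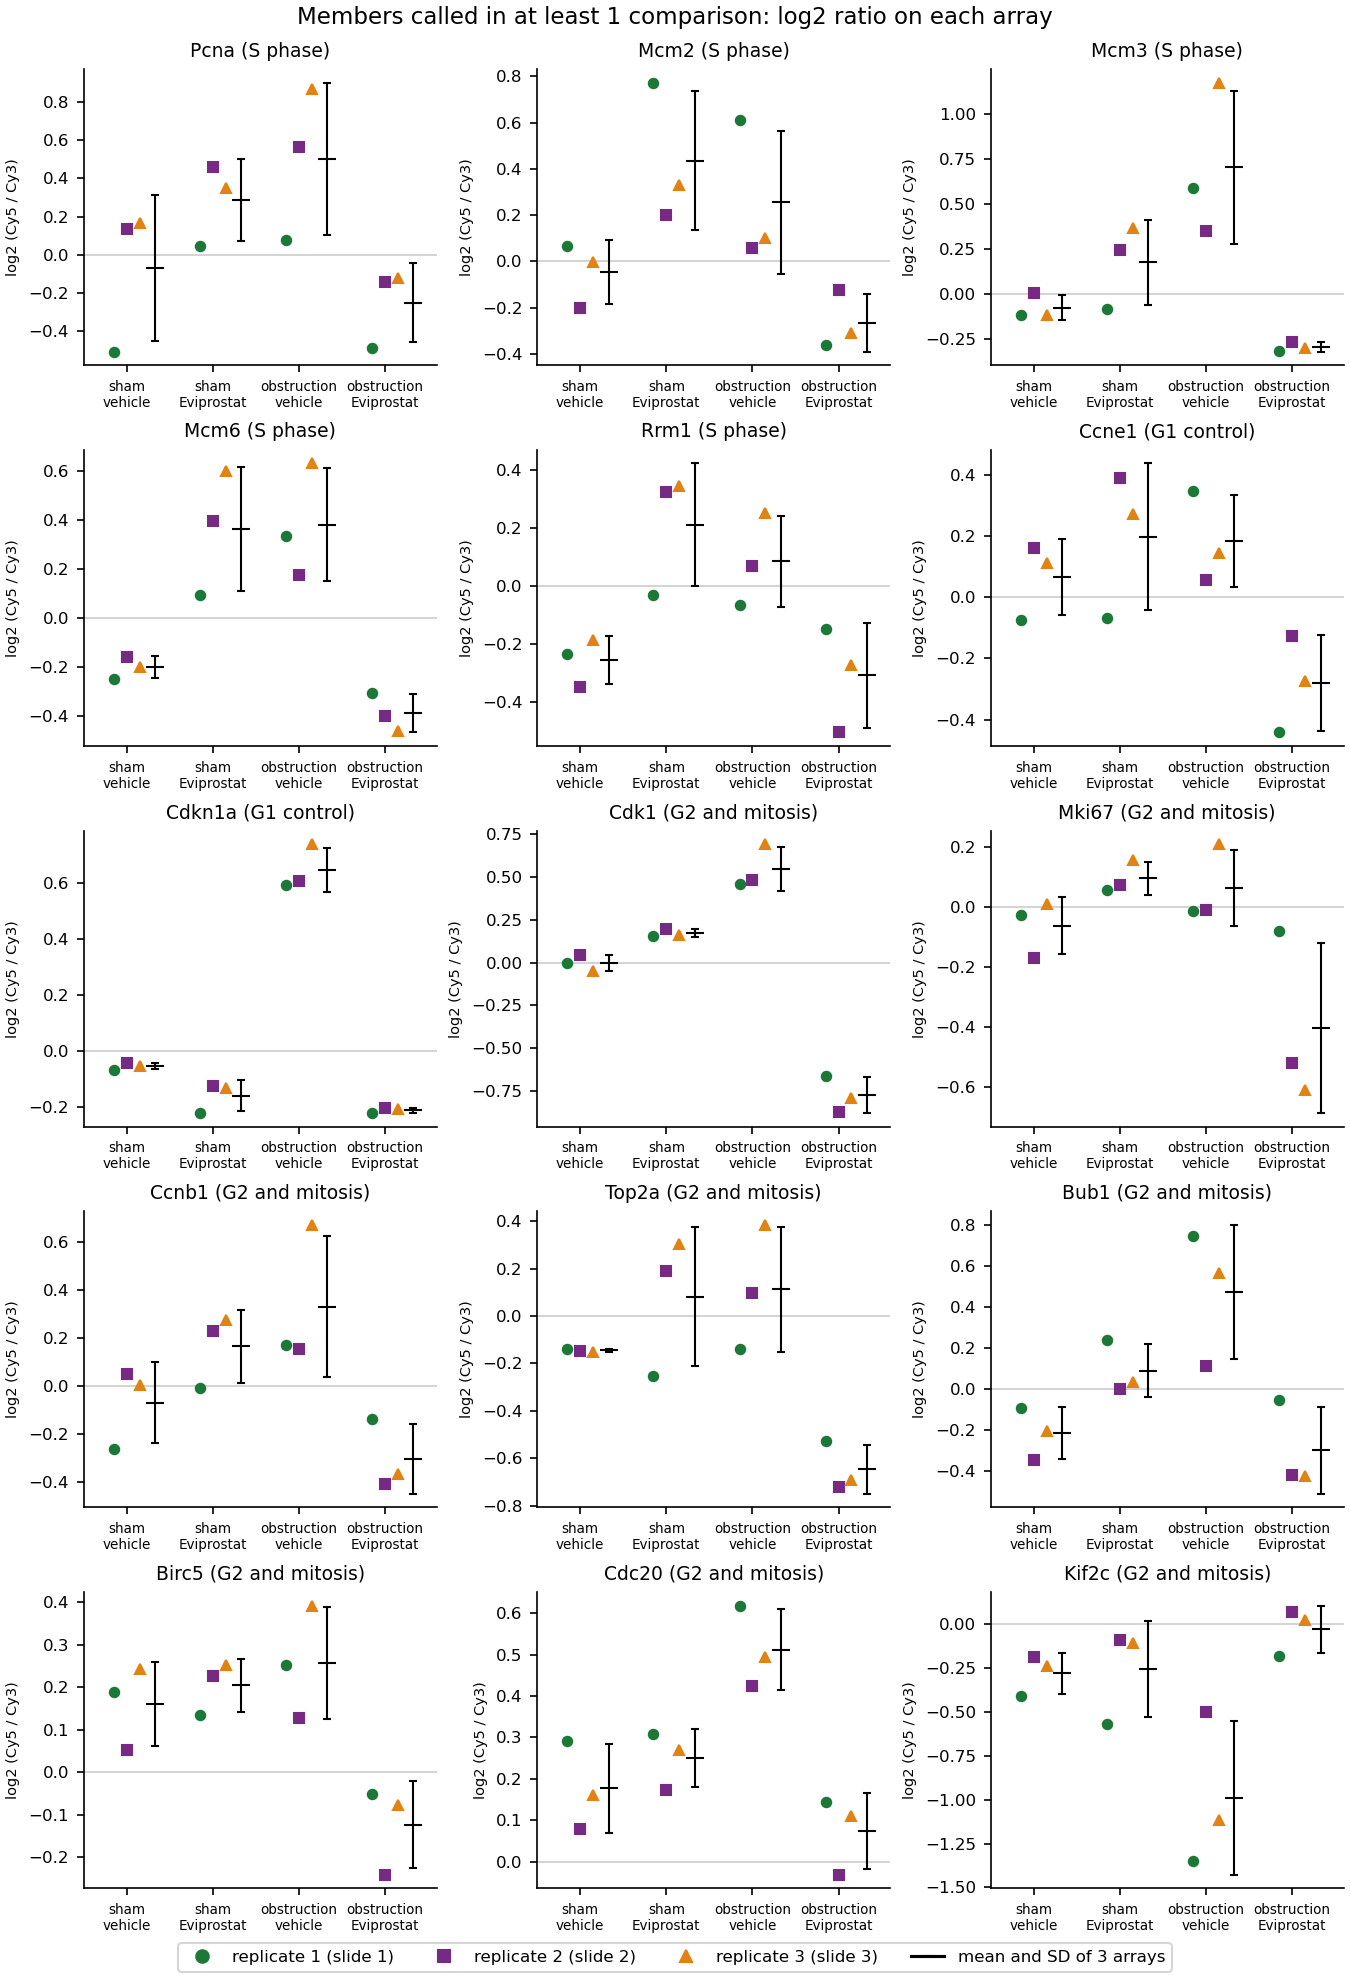
Log2 ratio of Cy5 to Cy3 on each of the 12 arrays for the 15 members called in at least 1 comparison; symbols mark the replicate and slide, bars give the mean and SD of 3 arrays, and each panel has its own vertical scale. Cdk1, Cdkn1a, Mcm3 and Top2a have all 3 obstruction/Eviprostat arrays below all 3 obstruction/vehicle arrays, and Kif2c has them above.

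In sham rats, Eviprostat was compared with vehicle to see what it does without obstruction (sham/Eviprostat against sham/vehicle). Of 37 members 0 were called by limma, where 1.53% of all kept probes were called (0.87% higher, 0.659% lower) and 1.45% of the brightest probes of named genes (1.2% higher). An unadjusted p under 0.05 was reached by 3 members. The difference was above 0 in 31 members, with a median of 0.26 over the S phase and 0.074 over the G2 and mitosis members, against 0.0013 over all kept probes. Mcm6 was at -0.25, -0.16 and -0.20 with vehicle and 0.096, 0.40 and 0.60 with Eviprostat. The arrays did not overlap, and the difference of 0.56 ± 0.14 had an adjusted p of 0.0704 by limma. Mcm2 was at 0.067, -0.20 and -0.0037 and 0.77, 0.20 and 0.33, and gave 0.48 ± 0.17 (adjusted p = 0.278). Rrm1 was at -0.23, -0.35 and -0.18 and -0.031, 0.32 and 0.34 (chromosome 1, 160017921 to 160017980) and gave 0.47 ± 0.13 (adjusted p = 0.123). With the replicate block Mcm6 and Rrm1 were called (adjusted p = 0.0154 and 0.0303). Without sham/Eviprostat replicate 1 the fit called 2 members, and without obstruction/vehicle replicate 2 or 3 it called 1. Cdk1 (0.15, 0.20 and 0.16) was above all sham/vehicle arrays at 0.17 ± 0.089 (adjusted p = 0.554), and Cdkn1a (-0.22, -0.12 and -0.13) was below them at -0.11 ± 0.075 (adjusted p = 0.754). Neither passed.

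Among Eviprostat-treated rats (obstruction/Eviprostat against sham/Eviprostat), 3 of 37 members were lower and 0 higher. Here limma called 2.28% of all kept probes, 0.969% higher and 1.31% lower, and 2.48% of the brightest probes of named genes (1.85% lower). Cdk1 fell by 0.94 ± 0.089 (adjusted p = 9.82e-05 by limma), Mcm6 by 0.75 ± 0.14 (adjusted p = 0.0127) and Top2a by 0.73 ± 0.15 (adjusted p = 0.0276). Cdk1 kept its call in all fits without 1 array. The Mcm6 call was lost without sham/Eviprostat or obstruction/Eviprostat replicate 2 or 3, with values from -0.89 to -0.63 over all fits. The Top2a call was lost without any 1 of these 4 arrays, obstruction/Eviprostat replicate 1 or sham/vehicle replicate 2 or 3, with values from -0.89 to -0.62. The second Top2a probe gave -0.28 (adjusted p = 0.337), and the mean of both probes lost the call (-0.50, adjusted p = 0.0657). Below 0 were 10 of 10 S phase and 19 of 20 G2 and mitosis members, with medians of -0.48 and -0.29 against 0.0061 over all kept probes. The blocked fit called 13 members, all lower. Its additional calls included Pcna (adjusted p = 0.00514), Mcm2 (0.0064), Rrm1 (0.0137) and Mki67 (0.0206). With median centring 0 members were called, with Cdk1 at -0.99 (adjusted p = 0.478). The count was 1 without replicate 2 or 3 of either group, and 5 without sham/Eviprostat replicate 1. On slides 2 and 3 alone it was 15.

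Set against sham/vehicle, the obstruction/Eviprostat arrays had 1 called member, Cdk1. Only 0.294% of all kept probes were called there, 0.175% higher and 0.119% lower, and 0.505% of the brightest probes of named genes (0.184% lower). Cdk1 was 1.7-fold lower, having fallen by 0.77 ± 0.089 on the log2 scale (adjusted p = 0.00255 by limma), and the call held in all fits without 1 array, though not with median centring (-0.81, adjusted p = 1.00). Top2a came next at -0.50 ± 0.15, with every treated array below every sham/vehicle array, but did not pass (adjusted p = 0.434). Of 20 G2 and mitosis members 19 were below 0, with a median of -0.15, and of 10 S phase members 9, with a median of -0.17, against 0.0035 over all kept probes.

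Whether Eviprostat acted differently in obstructed and in sham rats was tested by the difference between its effects (obstruction minus sham). The difference was called in 11 of 37 members, below 0 in each, where limma called 8.66% of all kept probes (3.78% above 0 and 4.89% below) and 10.2% of the brightest probes of named genes (3.33% above and 6.9% below). It was called in 5 of 10 S phase members, 1 of 7 G1 members and 5 of 20 G2 and mitosis members. In 28 of 37 members the Eviprostat difference was above 0 in sham and below 0 in obstructed rats, as in 9 of 10 S phase and 16 of 20 G2 and mitosis members. This count of signs is not given over all kept probes. The test draws on the same 12 arrays as the comparisons above and is no separate measurement.

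Cdk1 had the difference farthest from 0, -1.49 ± 0.13 (adjusted p = 1.77e-05 by limma), made of 0.17 in sham and -1.32 in obstructed rats. Mcm6 followed with -1.33 ± 0.19 (adjusted p = 0.00112), from 0.56 and -0.77, and then Mcm3 with -1.25 ± 0.25 (adjusted p = 0.00924). For these genes the obstruction/Eviprostat arrays were the lowest of the series, and the obstruction/vehicle arrays were the highest in Cdk1 and interleaved with sham/Eviprostat in Mcm6 and Mcm3. Rrm1 gave -0.86 ± 0.18 (adjusted p = 0.0127), with -0.064, 0.068 and 0.25 in obstruction/vehicle and -0.15, -0.50 and -0.27 in obstruction/Eviprostat. Its other 2 probes gave -0.20 and -0.094 and were not called (adjusted p = 0.467 and 0.714), and the mean of the 3 lost the call (-0.38, adjusted p = 0.0655). Mcm2 (chromosome 4, 123223278 to 123223337) was at 0.61, 0.056 and 0.10 and -0.36, -0.12 and -0.31 in the obstructed groups and gave -1.0 ± 0.24 (adjusted p = 0.0242). The second Mcm2 probe gave -0.47 and was not called (adjusted p = 0.113). The Mcm2 call was lost without sham/vehicle replicate 2 (-0.92) or 3 (-1.02) and without obstruction/Eviprostat replicate 1 (-0.95) or 3 (-0.98). Pcna (chromosome 3, 119914570 to 119914629) gave -1.11 ± 0.31 (adjusted p = 0.0478), a call kept only without sham/Eviprostat replicate 1 or obstruction/vehicle replicate 1 among the 12 fits, with values from -1.32 to -0.89. Its dimmer probe was called too, at -0.85 (adjusted p = 0.0214).

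Cdkn1a gave -0.75 ± 0.11 (adjusted p = 0.00091 by limma), from -0.11 in sham and -0.86 in obstructed rats. Bub1 gave -1.08 ± 0.23 (adjusted p = 0.0113) and Top2a -0.99 ± 0.21 (adjusted p = 0.0146), and both calls, like those of Cdk1, Mcm6, Mcm3, Rrm1 and Cdkn1a, were kept in all fits without 1 array. The second Top2a probe gave -0.22 (adjusted p = 0.493), and the mean of both probes lost the call (-0.60, adjusted p = 0.061). The second Cdkn1a probe gave -0.55 and was not called (adjusted p = 0.198), and median centring ended the Cdkn1a call (-0.85, adjusted p = 0.661). Ccnb1 gave -0.87 ± 0.21 (adjusted p = 0.025) and Cdc20 -0.51 ± 0.13 (adjusted p = 0.0305). The Ccnb1 call was lost without sham/vehicle replicate 1 or 3 and without replicate 2 or 3 of sham/Eviprostat and of obstruction/Eviprostat, and ranged from -0.96 to -0.70. The second Ccnb1 probe gave -0.35 (adjusted p = 0.331), and the mean of both probes lost the call (-0.61, adjusted p = 0.072). The Cdc20 call held only without sham/vehicle replicate 1, sham/Eviprostat replicate 2, obstruction/vehicle replicate 2 or obstruction/Eviprostat replicate 1, and ranged from -0.57 to -0.46. Kif2c was on the other side at 0.93 ± 0.28 and did not pass (adjusted p = 0.0579). The blocked fit called 20 members, 19 below 0 and Kif2c above it (adjusted p = 0.00214). With median centring 4 members were called, among them Mcm2, Mcm6 and Bub1, while Cdk1 was at -1.61 (adjusted p = 0.097). The count was 7 without sham/vehicle replicate 3 and 7 without obstruction/Eviprostat replicate 3.

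**Figure D4:**
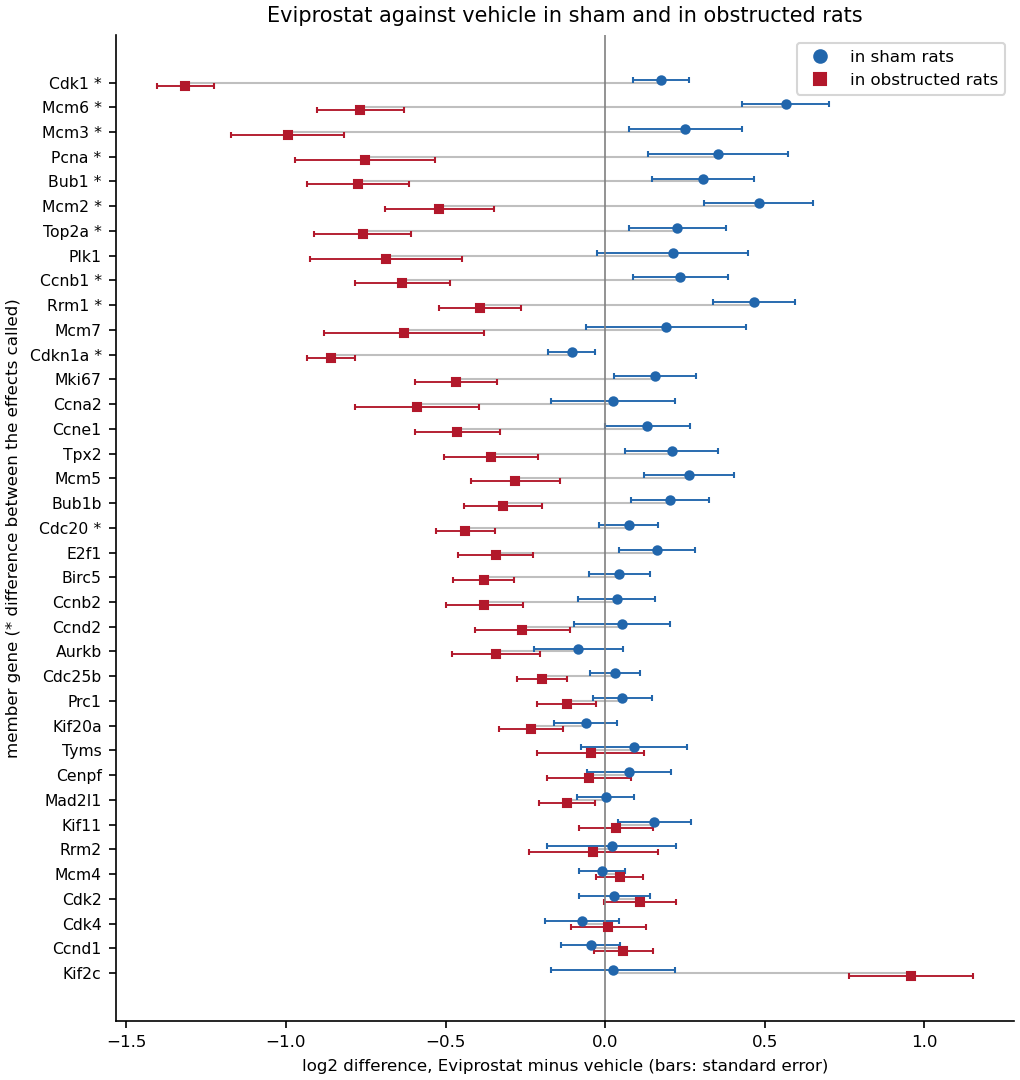
Log2 difference between Eviprostat and vehicle for each of the 37 tested members in sham rats (circles) and in obstructed rats (squares), with standard errors; members are sorted by the difference between the 2 effects, and an asterisk marks an adjusted p below 0.05 for it. The squares lie to the left of the circles for 32 members, and Kif2c has the widest gap in the other direction.

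The remaining 22 tested members were called in 0 of the 6 comparisons on their brightest probes. Some of them had large but uneven differences. Mcm7, a further helicase subunit, was at 0.94, 0.14 and 0.23 in obstruction/vehicle and -0.024, -0.25 and -0.31 in obstruction/Eviprostat, and Plk1 was at 1.03, 0.17 and 0.43 and 0.26, -0.32 and -0.36. In both genes the array of slide 1 was the highest of its group in all 4 groups, and their differences between the Eviprostat effects (-0.82 and -0.90) passed only with the replicate block (adjusted p = 0.00253 and 0.000819 by limma). With Eviprostat in obstructed rats, the helicase gene Mcm5 gave -0.28 ± 0.14, the G1 cyclin gene Ccnd2 -0.26 ± 0.15, the checkpoint kinase gene Bub1b -0.32 ± 0.12 and the spindle assembly factor gene Tpx2 -0.36 ± 0.15. Cdc25b, a phosphatase that activates Cdk1, gave -0.20 ± 0.079, and Kif20a and Prc1, which act in cytokinesis, -0.23 ± 0.10 and -0.12 ± 0.093. These 7 genes were all below 0, with adjusted p from 0.136 to 0.502 by limma. At the other end, Mcm4, Tyms (thymidylate synthase), Mad2l1 (a spindle checkpoint protein), Ccnd1, Cdk2 and Cdk4 changed little on their brightest probes. These lay between -0.15 (Cdk2 with obstruction) and 0.14 (Cdk4 between the Eviprostat groups) in all 6 comparisons. The second Ccnd1 probe ranged from -0.24 to 0.46 and the second Cdk4 probe from -0.13 to 0.27, and neither was called.

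For Rrm2 and Cenpf the choice of probe decided the call. The small subunit of ribonucleotide reductase is encoded by Rrm2, and its brightest probe gave -0.038 ± 0.20 for Eviprostat in obstructed rats (adjusted p = 0.944 by limma). The second Rrm2 probe gave -0.73 (adjusted p = 0.018). For the difference between the Eviprostat effects this second probe gave -0.87 (adjusted p = 0.0443 by limma), against -0.059 on the brightest probe. Both probes lie on chromosome 19 of rn3, which is not the chromosome that carries Rrm2 in GRCr8, and the brighter one had its highest ratio on slide 1 in each group (0.38, 0.073 and 0.12 in sham/vehicle). The brightest probes of the other 35 tested members with a position lie on the same chromosome in both builds. Cenpf, a kinetochore protein, gave -0.052 ± 0.13 on its brightest probe (adjusted p = 0.871) and -0.52 on its other probe (adjusted p = 0.0384). Kif11, the kinesin that pushes spindle poles apart, was well above background on 4 of 12 arrays, among them 0 of the sham/vehicle and 0 of the obstruction/Eviprostat arrays. The Aurka probe found by accession, for the Aurora A kinase, gave -0.27 ± 0.16 in the same comparison (adjusted p = 0.353). Aurkb, its relative in the chromosomal passenger complex, gave -0.34 ± 0.14 (adjusted p = 0.16).

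Other cell cycle genes outside the members were counted by 3 lists. Of 45 tested other mitotic genes, 5 were higher and 2 lower with obstruction, and 3 were higher and 14 lower with Eviprostat in obstructed rats, with medians of 0.15 and -0.36. The 5 higher are 11.1% of the list, near the 9.88% of named genes called higher, and the 14 lower are 31.1%, against 8.07% of named genes. The 2 lower with obstruction are 4.44%, against 5.15% of named genes. The 3 higher with Eviprostat in obstructed rats are 6.67%, against 4.35%. Stmn1, which encodes the microtubule-destabilising protein stathmin, rose by 0.90 ± 0.22 (adjusted p = 0.0223 by limma) and then gave -1.08 ± 0.22 (adjusted p = 0.00933). Lmnb1, of lamin B1 in the nuclear envelope, gave 1.79 ± 0.38 and -1.53 ± 0.38 (adjusted p = 0.00934 and 0.0254). The mitotic kinesin gene Kif15 went against the list with obstruction, at -1.14 ± 0.20 (adjusted p = 0.00336). Spc24, of the outer kinetochore, fell with Eviprostat in obstructed rats, at -1.12 ± 0.25 (adjusted p = 0.0132). In sham rats Eviprostat gave 0 calls in this list, with a median of 0.074. Between the Eviprostat-treated groups 3 genes were lower (6.67% of the list, against 1.85% of named genes). They were the checkpoint kinase gene Ttk at -0.77 ± 0.17, the phosphatase gene Cdkn3 at -0.55 ± 0.12 and the separase gene Espl1 at -0.40 ± 0.092. Their adjusted p was 0.0406, 0.038 and 0.0458 by limma. The difference between the Eviprostat effects was called above 0 in 2 genes of this list (4.44%, against 3.33% of named genes). They include Hmmr, a hyaluronan receptor that also binds spindles, at 1.04 ± 0.28 (adjusted p = 0.0373 by limma). It was called below 0 in 9 genes (20%, against 6.9% of named genes). Among these were the kinesin gene Kif22 at -1.12 ± 0.32 and Stmn1 at -1.44 ± 0.32 (adjusted p = 0.0483 and 0.0153 by limma).

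Of 35 tested other replication genes, 0 were called with obstruction and 3 were lower with Eviprostat in obstructed rats, with medians of 0.033 and -0.12. The 3 lower are 8.57% of the list, which is near the 8.07% of named genes called lower. The 3 were Dut, the enzyme that removes dUTP, at -0.54 ± 0.099, Gmnn, an inhibitor of origin licensing, at -0.54 ± 0.15, and Chaf1b, a subunit of chromatin assembly factor 1, at -0.50 ± 0.10 (adjusted p = 0.00414, 0.0434 and 0.00744 by limma). Chaf1b was lower in obstruction/Eviprostat than in sham/vehicle too, at -0.66 ± 0.10 (adjusted p = 0.016). Against sham/Eviprostat it gave -0.82 ± 0.10, and the difference between the Eviprostat effects was -0.66 ± 0.14 (adjusted p = 0.000878 and 0.0137 by limma). In each of these comparisons Chaf1b was the 1 gene of the list called (2.86%). The shares of named genes called lower were 0.184%, 1.85% and 6.9%. In sham rats 28 of the 35 genes were above 0 with Eviprostat, but 0 were called. In the list of 36 other G1 and checkpoint genes, 6 were higher and 1 lower with obstruction, and 3 were lower with Eviprostat in obstructed rats. These are 16.7% higher against 9.88% of named genes, and 8.33% lower, near the 8.07% of named genes. The 1 lower with obstruction is 2.78% of the list, against 5.15% of named genes. The stress-induced growth arrest gene Gadd45a rose by 2.16 ± 0.19 (adjusted p = 1.15e-05) and then gave -2.18 ± 0.19 (adjusted p = 1.4e-05). The antiproliferative gene Btg2 gave 1.59 ± 0.19 and -1.40 ± 0.19, and Cdkn2d, an inhibitor of Cdk4 and Cdk6, gave 0.97 ± 0.14 and -1.08 ± 0.14. The difference between the Eviprostat effects was called below 0 in the same 3 genes (8.33%, against 6.9% of named genes). It was called above 0 in 1 gene of the list (2.78%, against 3.33%). For Gadd45a it was -2.25 ± 0.26, for Btg2 -1.34 ± 0.27 and for Cdkn2d -1.09 ± 0.20 (adjusted p = 0.000226, 0.0086 and 0.00472 by limma). These 3 growth arrest genes moved by more than any of the 37 members did with obstruction. They were named because they had the largest called differences among the 36 genes, so they do not stand for the list. The list's medians were near 0, at -0.0028 and 0.0090.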

How the data were processed

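Cy5 and Cy3 intensity on 12 Agilent arrays was measured with Feature Extraction 9.5.1.1, per the submitters' processing notes. The deposited intensity columns used were the mean spot signals and the median local background of each dye. The authors also deposited a log10 ratio of Cy5 to Cy3 per spot, and their value table holds the same numbers (largest difference 0). Probe positions are on rn3, per the file headers, and no annotation of that build was used here, so probes are not placed in exons.

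From the deposited intensity, log2 ratios were computed with limma 3.58.1 in R 4.3.3 (normexp with offset 50, then loess within arrays, control spots at weight 0), and spots of 1 probe were averaged. A probe was kept if well above background in Cy5 on at least 3 of 12 arrays, which left 36102 of 41012. One model over the 4 groups (8 residual degrees of freedom) gave 6 comparisons, with Benjamini-Hochberg adjustment over all kept probes. A call is an adjusted p below 0.05. A gene was read from its brightest kept probe, by the mean of both dyes.

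Replicate number and slide coincide in the files. Deviations from the group means correlated at 0.155 to 0.779 in all 18 pairs of arrays of different groups with the same number, and a replicate block was fitted as an alternative. Pairs with different numbers correlated at -0.702 to -0.161 where 1 array was of slide 1 and at 0.0886 to 0.558 between slides 2 and 3, so the check mainly sets slide 1 apart. On simulated data for obstruction/vehicle against sham/vehicle, with 200 of 36022 probes changed, 35% of changes of 0.5 and 80% of changes of 1 (log2) were called. The simulated noise was independent between arrays, without a shared slide effect. In the data 11.6% of kept probes were called in this comparison, so the simulated shares need not hold for the calls above. The number of arrays limits the precision.

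Values are given most fully for members called in at least 1 comparison and for Mki67, Pcna and Top2a, though not for every group or comparison. For the rest, ranges, counts or selected differences are given. From each list of other cell cycle genes, up to 3 called genes per comparison with the largest difference were named. Other members are named where a probe, a slide or the block bears on them, chosen after their values were seen. Members, roles and lists were chosen with earlier results of these data known. Promoters come from RefSeq, GRCr8, and motifs were searched in Python 3.11.15. Promoters of Mcm4, Rrm2, Ccnd1, Ccnd2, E2f1, Ccna2, Tpx2 and Aurkb were not analysed here.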

Additional observations from a re-analysis of the deposited data

Results flagged for a closer look

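The Eviprostat effect in obstructed rats differed from that in sham rats, by limma's test of the difference between the effects (obstruction minus sham, log2), in 11 members. In S phase the difference was -1.33 for Mcm6, -1.25 for Mcm3, -1.11 for Pcna, -1.0 for Mcm2 and -0.86 for Rrm1. Among the G2 and mitosis members it was -1.49 for Cdk1, -1.08 for Bub1, -0.99 for Top2a, -0.87 for Ccnb1 and -0.51 for Cdc20. For Cdkn1a, the 1 G1 member, it was -0.75. In each of these genes except Cdkn1a the Eviprostat difference was above 0 in sham and below 0 in obstructed rats. For Cdkn1a it was below 0 in both.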

How the results depend on the processing

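No called member changed direction under any alternative run. Counts of called members (of 37; higher and lower together) moved by over 1.5 times under these settings. For obstruction under vehicle (main count 7) the count was 1 with median centring in place of loess, 14 with the scanner's own log ratio, 12 with the replicate block and 3 with only the 6 arrays compared. For Eviprostat in obstructed rats (12) it was 4, 23, 22 and 6 under the same settings, and 21 without background correction. For Eviprostat in sham rats (0) it was 5 with the scanner's log ratio, 2 with the block, and 1 each with Cy5 alone, slides 2 and 3 alone and the mean over probes. Between the Eviprostat groups (3) it was 0 with median centring, 14 with the scanner's log ratio, 6 without background correction, 13 with the block and 15 on slides 2 and 3. For obstruction/Eviprostat against sham/vehicle (1) it was 0 with median centring, 7 with the scanner's log ratio and 2 with only the 6 arrays. For the difference between the Eviprostat effects (11) it was 4, 21, 17, 20 and 19 with median centring, the scanner's log ratio, no background correction, the block and slides 2 and 3. Leaving out 1 array gave 2 to 7, 7 to 16, 0 to 2, 1 to 5, 1 to 1 and 7 to 15 calls in the 6 comparisons in that order. The cause of these shifts was not tested. Shares of all kept probes called under these settings are not given here, so a larger count need not be particular to the members. The replicate block ended 0 calls of members. Naming through accessions, no filter on dim probes and the filter on all 12 arrays moved no count by over 1.5 times. Dim probes limit Kif11, Prc1 and Cenpf, well above background on 4, 7 and 8 of 12 arrays.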
